A study of Mus musculus with 6 samples.

Results

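The triggering receptors expressed on myeloid cells (TREM) and the signalling chains they depend on were followed here in mouse libraries. The study describes these as tumor-associated macrophages (TAMs), whereas the sample labels name tumor tissue. The TREM group holds 8 of the 22377 genes in the count table. These are the receptor genes Trem1, Trem2, Trem3, Treml1, Treml2 and Treml4 and the adaptor genes Tyrobp, which encodes DAP12, and Hcst, which encodes DAP10. In that order their NCBI gene numbers are 58217, 83433, 58218, 71326, 328833, 224840, 22177 and 23900. They were taken by gene symbol, and the family was chosen by a proposal made with the wt and knockdown values of these same libraries in view. The difference between the groups in these 8 genes is therefore given as a description, without a test. In the libraries labelled knockdown, the 4 receptors that signal through Tyrobp and Tyrobp itself had lower mean levels in groups that overlapped, Treml2 was lower in each library and Hcst was higher in each library. The groups also lay apart for 25.9% of all genes tested. Relative to a list of 10 macrophage markers, Treml2 overlapped between the groups.

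TREM receptors are immunoglobulin-like proteins of the surface of myeloid cells. Trem1, Trem2, Trem3 and Treml4 have short cytoplasmic tails and borrow the tail of Tyrobp, whose immunoreceptor tyrosine-based activation motif (ITAM) recruits the kinase Syk once its tyrosines are phosphorylated. Hcst carries a different tyrosine motif that recruits phosphatidylinositol 3-kinase, and it is best known as the partner of the lymphocyte receptor NKG2D, the product of Klrk1. Treml1 and Treml2 do not use Tyrobp. Trem1 amplifies inflammatory signals in monocytes and neutrophils, Trem2 binds lipids and lipoproteins and marks a lipid-handling state of TAMs, and Treml1 is best known from platelets.

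The coding stretches of the 2 adaptor motifs are shown because they separate the chain that feeds Syk from the chain that feeds phosphatidylinositol 3-kinase. They were read from the GENCODE vM21 transcripts (GRCm38) and are written 5′ to 3′ on the coding strand, with the tyrosine codons in capitals. The Tyrobp stretch begins in exon 4 and ends in exon 5 of a transcript of 114 codons, between chr7:30415670-30417382 on the plus strand, with an intron in between. The Hcst stretch lies in exon 4 of a transcript of 79 codons, at chr7:30417815-30417838 on the minus strand.
Tyrobp: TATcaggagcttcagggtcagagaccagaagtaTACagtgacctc
Hcst: agagtcTACatcaacatgcctggc
Among the longest coding sequences of the 8 genes, that of Tyrobp alone held an ITAM and that of Hcst alone held the other motif, as the letters of the motifs were searched in the translated sequence.

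LLC is the Lewis lung carcinoma line of the mouse, and the study asked which genes of TAMs depend on Npm1, the gene of nucleophosmin. LLC cells were implanted under the skin of male and female mice aged 6 to 8 weeks, and tumors were taken 2 weeks later. The libraries fall into 3 labelled wt and 3 labelled knockdown, and the sample titles of the latter read ko. In the study these were TAMs, isolated by sorting, of Npm1+/+ or of Npm1+/- hosts with LLC tumors, although its account of the implantation names Npm1+/- and Npm1UTR+/- mice. The sort took CD45+ CD11b+ F4/80+ cells, a gate that should remove lymphocytes, fibroblasts, carcinoma cells and most neutrophils. The Npm1 deficiency is described as systemic, and for one display of these data fewer animals are named than there are libraries. The sample labels instead name tumor tissue, a knockdown and a library made from small RNAs, so the material cannot be settled from the labels. The strain of these mice and how the alleles were made are not given in the sources used here.

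Total counts lay between 36550775 and 38147320 per library. Npm1 itself stood at 142, 380.2 and 381 CPM (counts relative to a common library size, set by TMM scaling) in wt replicates 1, 2 and 3 and at 441, 499 and 343 in knockdown replicates 1, 2 and 3. The targeted gene was not lower in the libraries labelled knockdown, so each direction below is that between labels. The macrophage label was checked against Itgam, which encodes CD11b, at 1492 to 2975 CPM, and Adgre1, the gene of the macrophage surface protein EMR1, at 127 to 302. The first principal component, with 67.99% of the variance, placed wt replicate 1 at -108 and the other 5 libraries between -4.54 and 52.0. In such bulk libraries, fewer cells of a type and less RNA per cell cannot be told apart.

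Per length, in FPKM (counts over gene length and over the library total), Tyrobp stood far above its receptors. Tyrobp averaged 1224 ± 183 FPKM (SD, n = 3) in wt libraries and 982 ± 164 in libraries labelled knockdown, and ranked 52 of 22377 genes by its mean over all 6. Trem1 followed with 155 ± 17.4 and 141 ± 24.8 FPKM, Trem2 with 37.1 ± 4.18 and 31.5 ± 4.70, and Trem3 with 26.3 ± 4.49 and 22.7 ± 4.44. Neither the range of Tyrobp nor that of Trem1 touched that of any other member in either group. In wt libraries Trem2 and Trem3 did not overlap, whereas Trem3, with 22.1 to 31.1 FPKM, overlapped Treml4, with 14.7 to 28.9, and Treml4 overlapped Hcst, with 13.5 to 16.4. In libraries labelled knockdown Hcst, with 17.4 to 25.3 FPKM, overlapped Trem3, with 17.8 to 26.5, and lay above Treml4, with 13.7 to 15.8. Treml2 was lower still, at 6.24 ± 0.81 and 3.86 ± 0.47 FPKM, and Treml1, at 0.18 ± 0.11 and 0.13 ± 0.04, was close to the limit of detection.

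Trem1, the receptor that amplifies inflammatory signals, had 616, 656 and 498 CPM in wt replicates 1, 2 and 3 and 504, 360 and 607 in knockdown replicates 1, 2 and 3. Knockdown replicate 2 was lowest, the other values were interleaved, and the groups overlapped. The log2 fold change of the knockdown over the wt label was -0.27 (standard error 0.21), or 0.831-fold. Trem2, the lipid receptor, had 50.4, 40.1 and 43.8 CPM in wt libraries and 33.3, 27.3 and 43.3 in libraries labelled knockdown. Here knockdown replicate 3 alone reached into the wt range. The log2 fold change of Trem2 was -0.37 (standard error 0.19), or 0.773-fold.

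Trem3, a receptor gene of the mouse next to Trem1, had 37.1, 26.4 and 29.2 CPM in wt libraries and 25.1, 17.3 and 30.5 in libraries labelled knockdown, with a log2 fold change of -0.35 (standard error 0.23). Again knockdown replicate 2 was lowest and knockdown replicate 3 lay among the wt values. Treml4, a receptor of myeloid and dendritic cells, had 64.7, 32.9 and 36.9 CPM in wt libraries and 30.4, 24.9 and 34.0 in libraries labelled knockdown. Its log2 fold change of -0.59 (standard error 0.27) rested in good part on wt replicate 1, without which it was -0.23.

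Treml2, a receptor that does not use Tyrobp, had 35, 27.0 and 31.3 CPM in wt libraries and 15.3, 17.8 and 18.9 in libraries labelled knockdown. Each knockdown value was below each wt value, and the means of 31.1 ± 3.98 and 17.3 ± 1.86 CPM (SD, n = 3) corresponded to a log2 fold change of -0.84 (standard error 0.16), or 0.557-fold. Its order among the libraries also differed from that of the receptors above, since knockdown replicate 1 rather than 2 was lowest. Treml1 had 10, 13 and 3 counts in wt libraries and 5, 8 and 5 in libraries labelled knockdown. It did not pass the filter on low counts, and at this depth a difference in Treml1 was not detectable.

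Tyrobp, the chain of the 4 coupled receptors, had 884, 708 and 638 CPM in wt libraries and 560.5, 402 and 665 in libraries labelled knockdown. Its means were 743 ± 127 and 543 ± 133 CPM (SD, n = 3), and its log2 fold change was -0.45 (standard error 0.22), or 0.73-fold. Knockdown replicate 3 exceeded wt replicate 3, and so the groups overlapped. Hcst, the chain of the lymphocyte receptor Klrk1, had 6.38, 6.76 and 7.35 CPM in wt libraries and 8.22, 9.74 and 7.96 in libraries labelled knockdown. Each knockdown value of Hcst was above each wt value, by a small margin for knockdown replicate 3, with a log2 fold change of 0.34 (standard error 0.19), or 1.26-fold. The library with the least Tyrobp, knockdown replicate 2, had the most Hcst, and the library with the most Tyrobp, wt replicate 1, had the least.

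**Figure D1:**
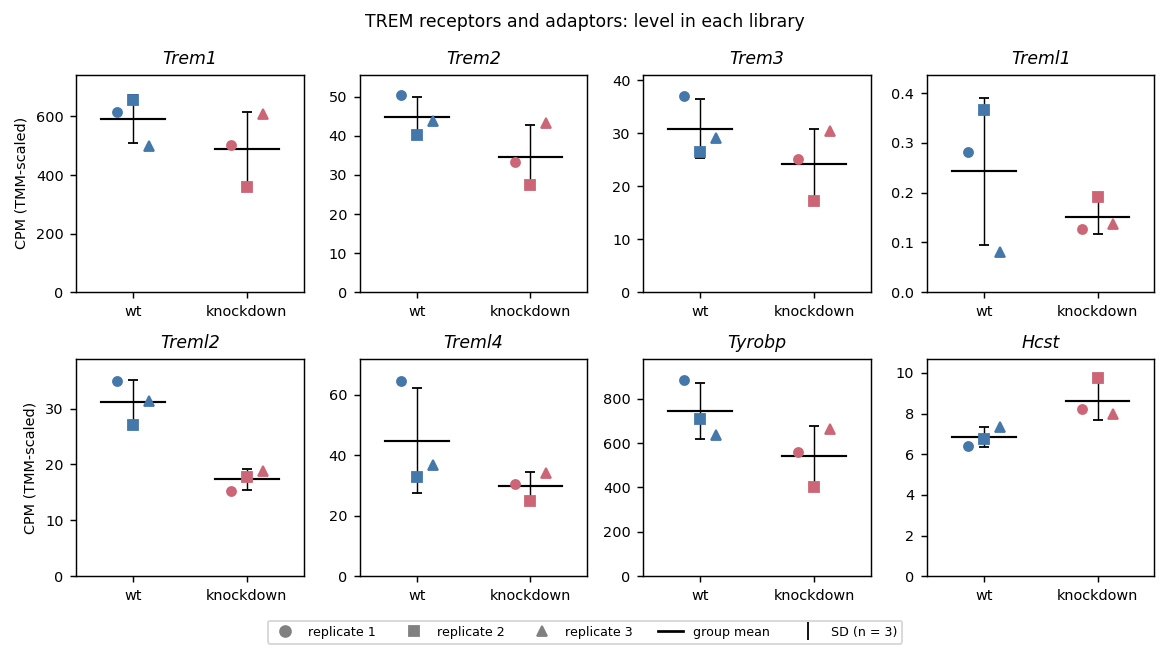
TMM-scaled CPM of the 8 genes in each of the 6 libraries, 1 panel per gene, on axes that start at 0. Points are libraries, with a shape for each replicate number, and lines show the mean and SD of 3 libraries. The values of Treml2 and Hcst do not overlap between the groups, those of the other 6 genes do, and knockdown replicate 2 is the lowest library in 5 panels.

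Of the 8 genes, 7 passed the filter on low counts, and 6 of these had a lower estimate in the libraries labelled knockdown. Of all 13884 genes tested, 6656 had a lower estimate. In the fit over all genes, edgeR's quasi-likelihood test called 0 of 13884 genes at an adjusted p under 0.05 (0%), with 2112 at an unadjusted p under 0.05, so none of the 7 was called. DESeq2 on the same libraries called 36 of 13699 genes (0.263%), of which Treml2 was 1. The groups did not overlap for Treml2 and Hcst, 2 of the 7 genes, against 25.9% of all genes tested. Treml2 is among the 12.6% of genes that were lower in each library labelled knockdown, and Hcst among the 13.3% that were higher. Because the genes were selected on this contrast, nothing is read from these shares. The count depended on knockdown replicate 3. Without it, 6 of the 7 genes did not overlap, all but Trem1, but this held for 49.7% of all genes too. Without wt replicate 2 or wt replicate 3 there were 4, against 43.5% and 41.8% of all genes.

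The median log2 fold change of the 7 genes was -0.37, against 0.02 for all genes tested. For each of Trem1, Trem2, Trem3 and Tyrobp the estimate was smallest in size without knockdown replicate 2, at -0.09, -0.23, -0.16 and -0.29, and largest without knockdown replicate 3, at -0.46, -0.57, -0.55 and -0.63. Treml2 varied less, from -0.94 to -0.75, and Hcst from 0.24 to 0.39.

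**Figure D2:**
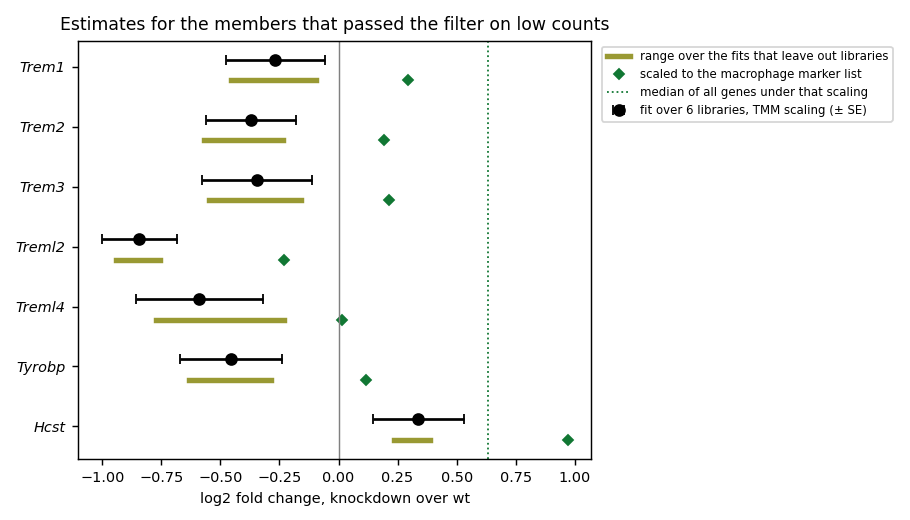
log2 fold change of the knockdown over the wt label (horizontal axis) for the 7 genes tested, with the standard error as a bar. Thick lines give the range over the fits that leave out libraries, diamonds the estimate after scaling to the macrophage marker list, and the dotted line the median of all genes under that scaling (0.63). With TMM scaling only Hcst lies above 0, and after scaling to the list only Treml2 lies below it.

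To compare the receptors with their chain irrespective of library scaling, ratios were formed within each library. The summed FPKM of the 4 coupled receptors per 100 FPKM of Tyrobp were 18.2, 20.8 and 19.8 in wt libraries and 21.1, 21.6 and 21.6 in libraries labelled knockdown. The ratio was slightly higher in each library labelled knockdown, with means of 19.6 ± 1.35 and 21.4 ± 0.28 (SD, n = 3). Tyrobp itself had a log2 fold change of -0.45, against a median of 0.02 for all genes tested. A gene at that median therefore also rises relative to Tyrobp. The share of all genes that lie apart in such a ratio was not determined, so nothing particular to the receptors is read from it. The receptor sum itself overlapped between the groups, at 216 to 260.2 FPKM and 173 to 242. Trem1 made up 61.2% to 70.9% of the coupled receptor sum in wt libraries and 66.0% to 67.8% in the others. Trem1 per 100 FPKM of Tyrobp spanned 11.1 to 14.8 in wt libraries and 14.3 to 14.6 in libraries labelled knockdown, and the ratios of Trem2, Trem3 and Treml4 to Tyrobp overlapped between groups.

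The ratio of Hcst to Tyrobp was also higher in each library labelled knockdown, by more. It was 0.94, 1.24 and 1.5 FPKM per 100 FPKM of Tyrobp in wt libraries and 1.91, 3.15 and 1.56 in libraries labelled knockdown. The knockdown values were all above the wt values, with wt replicate 3 and knockdown replicate 3 close to each other. The mean ratio was 1.23 ± 0.28 (SD, n = 3) in wt libraries and 2.20 ± 0.84 in the others. The lower level of Tyrobp enters this ratio too, and the share of all genes was not determined here either.

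The members were also set against the macrophage list of 10 genes, which includes Adgre1, Csf1r, Cd68, Itgam and the complement genes C1qa, C1qb and C1qc, and whose summed level was itself lower, at 5758 to 6918 CPM in wt libraries and 3257 to 5452 in libraries labelled knockdown. Per 1000 CPM of this list, Tyrobp stood at 128, 113 and 111 CPM in wt libraries and at 136, 123 and 122 in libraries labelled knockdown. Relative to the macrophage list, Tyrobp was thus not lower. Trem1 had 86.5 to 105 CPM per 1000 in wt libraries and 111 to 122 in the others, and Trem2 had 6.42 to 7.61 and 7.94 to 8.39, both without overlap and in the higher direction. Treml2 had 4.32 to 5.44 and 3.46 to 5.47, which overlapped, and Hcst had 0.92 to 1.28 and 1.46 to 2.99, which did not. With the libraries scaled to this list, 43.2% of all genes did not overlap between groups. The median log2 fold change of all genes was then 0.63, so nothing particular to these members is read from their separation.

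**Figure D3:**
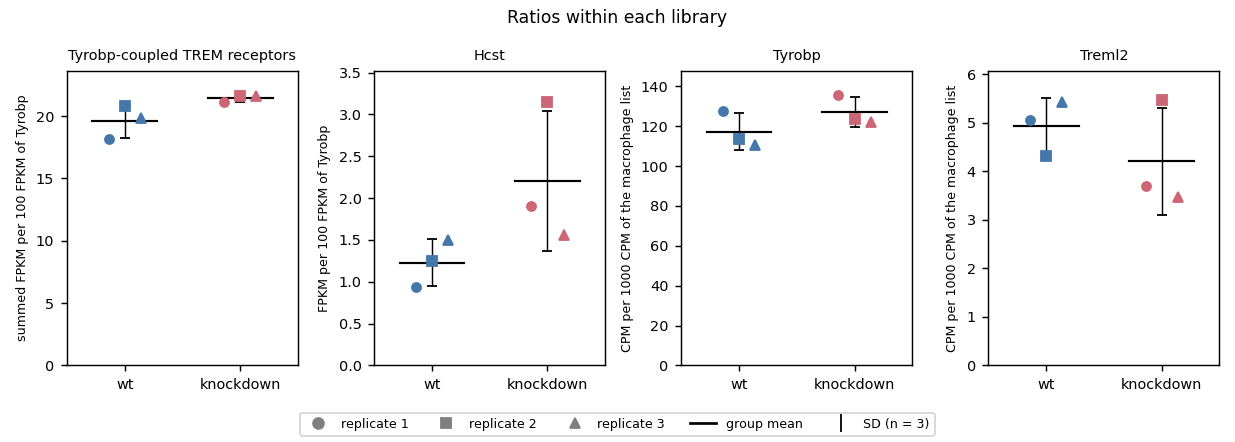
Ratios within each library, with axes from 0, points for libraries and lines for the mean and SD of 3 libraries. From left to right the panels show the summed FPKM of Trem1, Trem2, Trem3 and Treml4 per 100 FPKM of Tyrobp, the FPKM of Hcst per 100 FPKM of Tyrobp, and the CPM of Tyrobp and of Treml2 per 1000 CPM of the macrophage list. The first 2 ratios are higher in each library labelled knockdown, and the last 2 overlap.

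The genes were next compared by their pattern over the 6 libraries, as the root mean square difference of log2 CPM after each gene was centred on its own mean. Among the members, Trem2 and Trem3 were closest to each other, with a difference of 0.09. Tyrobp lay 0.10 from Trem3, 0.12 from Trem2, 0.15 from Trem1 and 0.21 from Treml4, but 0.31 from Treml2 and 0.54 from Hcst. Among the genes with a mean of at least 10 CPM, the 3 closest to Tyrobp were Srd5a3 (0.03), Trappc1 (0.04) and Fxyd5 (0.04). Those closest to Trem2 were Cdk19 (0.04), Pilra (0.04), an inhibitory receptor of myeloid cells, and Slc25a16 (0.04). Those closest to Trem1 were Ctnnbip1, Rnf217 and Gm12854, each at 0.06, and those closest to Hcst were Fubp1 (0.03), Ddx21 (0.04), a nucleolar RNA helicase, and Siah1a (0.04). Over only 6 libraries such closeness is a description of the pattern and is shared by many genes.

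The 6 receptor genes form 1 cluster of 134409 bp on chromosome 17 of GRCm38, from 48232768 to 48367176 in the GENCODE annotation, all on the plus strand. Their order is Trem1, Trem3, Treml4, Treml2, Trem2 and Treml1, and the gap between Trem1 and Trem3 is 852 bp. A pseudogene on the opposite strand overlaps Trem1, whose counts are uncertain to that extent because the use of strand is unknown. B430306N03Rik lies between Treml2 and Trem2. It had 38.7, 26.1 and 33.5 CPM in wt libraries and 18.6, 20.4 and 22.2 in libraries labelled knockdown, without overlap, with a log2 fold change of -0.68 (standard error 0.18), and edgeR gave an adjusted p of 0.328. This was the same separation as in Treml2, its neighbor at 3607 bp, and it held for 12.6% of all genes tested. At the flanks of the cluster, A530064D06Rik had a log2 fold change of -0.37 and Nfya, a subunit of a general promoter-binding factor, of -0.16, and the groups overlapped for both. The estimates of the 5 tested receptors thus ranged from -0.27 in Trem1 to -0.84 in Treml2, with the largest in size side by side at Treml2 and B430306N03Rik.

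Tyrobp (from 30413760 to 30417585, plus strand) and Hcst (from 30417712 to 30419854, minus strand) are neighbors on chromosome 7, and their 3′ ends face each other across 126 bp. The pair lay close together and had estimates of opposite sign. On their other sides, Nfkbid, an atypical inhibitor of NF-kB, had a log2 fold change of -0.08 (standard error 0.12, adjusted p = 0.710) and Lrfn3 was too low to interpret, at 0.03 to 1.17 CPM.

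Promoter windows of RefSeq (GRCm38.p6, 250 bases before to 50 after the start) matched 5 of the 8 genes, and were searched on both strands for 4 motifs. The Ets-type motif GGAAGT occurred in Trem1, Treml4 and Hcst and in 23.8% of all 32851 windows. The myeloid factor PU.1 belongs to the Ets class. The STAT motif TTCNNNGAA occurred in Trem1 alone of the 5 and in 8.3% of all windows. The AP-1-like motif TGANTCA, with its middle base left free, occurred in Trem2 alone and in 7.81%. The C/EBP motif TTNNGNAA occurred in each of the 5 but Treml1 and in 40.7%. The 100 bases before the start of Hcst and of Trem2 are shown, as these genes had estimates of opposite sign. Their windows differ in GGAAGT and TGANTCA, while both hold the C/EBP motif. The shorter letters GGAA occur in both printed stretches. The stretches lie at chr7:30419855-30419954 (minus strand) and chr17:48346301-48346400 (plus strand) of GRCm38, and capitals mark GGAAGT in Hcst and TGANTCA in Trem2.
Hcst: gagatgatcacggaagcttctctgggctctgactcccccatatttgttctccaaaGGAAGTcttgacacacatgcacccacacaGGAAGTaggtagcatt
Trem2: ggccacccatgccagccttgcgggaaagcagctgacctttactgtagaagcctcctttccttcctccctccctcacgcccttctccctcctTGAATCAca
These matches describe the letters of the windows and were not related to the levels.

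The other receptors that use Tyrobp did not share 1 direction. Of 16 such genes, 15 were tested and 0 were called, with 6 estimates higher and 9 lower and a median log2 fold change of -0.15. Sirpb1c, a signal-regulatory protein and the most abundant, had 172, 145 and 138 CPM in wt libraries and 126, 88 and 147 in libraries labelled knockdown. Its pattern was that of Trem2, with knockdown replicate 2 lowest and knockdown replicate 3 within the wt range. The 2 largest estimates belonged to Klra8 (log2 fold change 1.76, standard error 0.58) and Klra4 (1.54, standard error 0.44), activating receptors of NK cells, with at most 8.28 CPM in any library and both with an adjusted p of 0.328. Without knockdown replicate 2 these were 1.00 and 0.98. The Klra and Sirpb1 genes belong to families of near-identical copies, and their values are therefore uncertain. Klrk1, the partner of Hcst, named here for that role after its values were seen, had 23.4, 20.3 and 33.2 CPM in wt libraries and 24.5, 29.5 and 29.8 in the others. Klrk1 thus overlapped between the groups, while Hcst did not.

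Among 7 other ITAM chains, Fcer1g, the gamma chain of Fc receptors, had an estimate close to that of Tyrobp but no overlap between groups. It had 719, 639 and 586 CPM in wt libraries and 469, 361 and 569 in libraries labelled knockdown, with a log2 fold change of -0.47 (standard error 0.19, adjusted p = 0.328). The FPKM of Tyrobp over that of Fcer1g lay between 1.25 and 1.41 in wt libraries and between 1.28 and 1.37 in the others, so both myeloid chains kept their proportion. The T cell chains were instead higher in estimate, with Cd3d at 4.55 ± 3.82 and 13.1 ± 6.53 CPM (SD, n = 3) and Cd3g at 7.20 ± 5.56 and 20.6 ± 12.5. The log2 fold change of Cd3g was 1.52, or 0.88 without knockdown replicate 2 and 2.31 without wt replicate 3. That of Cd3d was 1.52, or 1.03 without knockdown replicate 2 and 2.46 without wt replicate 3. Both had an adjusted p of 0.328 in edgeR's fit, and Cd3g overlapped between the groups.

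Downstream of the chains, 27 kinases and effectors were tested and 0 were called, with 6 estimates higher and 21 lower, a median of -0.29, 8 genes lower in each library labelled knockdown (12.6% of all genes) and 2 higher in each (13.3% of all genes). Syk, the kinase that binds phosphorylated ITAMs, had 989, 875 and 774 CPM in wt libraries and 739, 686 and 817 in the others, with a log2 fold change of -0.23 (standard error 0.15, adjusted p = 0.395). Syk overlapped between the groups and was lower by less than Tyrobp. Zap70, its counterpart in T cells, had a log2 fold change of 1.31 (standard error 0.56) and Plcg1, the phospholipase of T cell receptor signalling, of 0.87 (standard error 0.26), both with an adjusted p of 0.328. The groups overlapped for Zap70, and without knockdown replicate 2 its log2 fold change was 0.47.

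Of 11 inhibitors of ITAM signalling, 0 were called and 10 had lower estimates, with a median log2 fold change of -0.28. In this list 7 were lower in each library labelled knockdown (12.6% of all genes) and 1 was higher in each (13.3% of all genes). Ptpn6, the phosphatase SHP-1, had 386, 223 and 239 CPM in wt libraries and 147, 103 and 192 in libraries labelled knockdown, with a log2 fold change of -0.94 (standard error 0.29, adjusted p = 0.328). Its groups did not overlap. Cblb, a ubiquitin ligase, was the exception, with 58.2, 49.8 and 66.4 CPM in wt libraries and 97.0, 153 and 77.5 in the others, and a log2 fold change of 0.91 (standard error 0.25, adjusted p = 0.328), or 0.58 without knockdown replicate 2. Sla, an adaptor that limits receptor levels and the most abundant of the list, overlapped between groups at 352 ± 57.2 and 309 ± 80.3 CPM (SD, n = 3).

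Of 9 ligands and partners of TREM1 and TREM2, 8 were tested and 0 were called, with 4 estimates in each direction. In this list 2 were higher in each library labelled knockdown (13.3% of all genes) and 2 were lower in each (12.6% of all genes). Lgals3, galectin-3, which binds TREM2, had 1776, 1855 and 1512 CPM in wt libraries and 1292, 1091 and 1445 in libraries labelled knockdown, with a log2 fold change of -0.43 (standard error 0.16, adjusted p = 0.328). Apoe, the apolipoprotein that TREM2 binds, had 569, 548 and 507 CPM in wt libraries and 307, 271 and 415 in the others. Its log2 fold change of -0.71 (standard error 0.18, adjusted p = 0.328) was larger in size than that of Trem2, and its groups did not overlap. Il34, a cytokine that can bind TREM2, was at most 2.96 CPM. Of the 8 ligands of Klrk1, 3 were tested and 0 were called. Ulbp1 had 3.56 ± 2.15 and 7.98 ± 1.33 CPM (SD, n = 3), with a log2 fold change of 1.16 (standard error 0.49, adjusted p = 0.328) that was 0.75 without wt replicate 1, and Raet1d, of a family of near-identical genes, had 27.1 ± 7.00 and 23.5 ± 2.86.

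The enzymes that shed and cut TREM receptors, Adam10, Adam17 and the subunits of gamma-secretase, were 9 in number, of which 0 were called and 8 had lower estimates, with a median of -0.31. Adam17, the sheddase and the most abundant, stood at 207 ± 27.5 and 194 ± 10.9 CPM (SD, n = 3). The gamma-secretase subunits Aph1a (log2 fold change -0.51, standard error 0.18) and Psenen (-0.40, standard error 0.14) were lower in each library labelled knockdown, with an adjusted p of 0.328 for both. In the lipid-associated macrophage list, which shares Apoe and Lgals3 with the ligands, 8 of 11 genes had lower estimates and 0 were called. Spp1, osteopontin, was the most abundant and had a higher mean, at 1395 ± 210.4 and 1690 ± 199 CPM (SD, n = 3), and Itgax, CD11c, had 141 ± 55.5 and 97.4 ± 22.3.

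**Figure D4:**
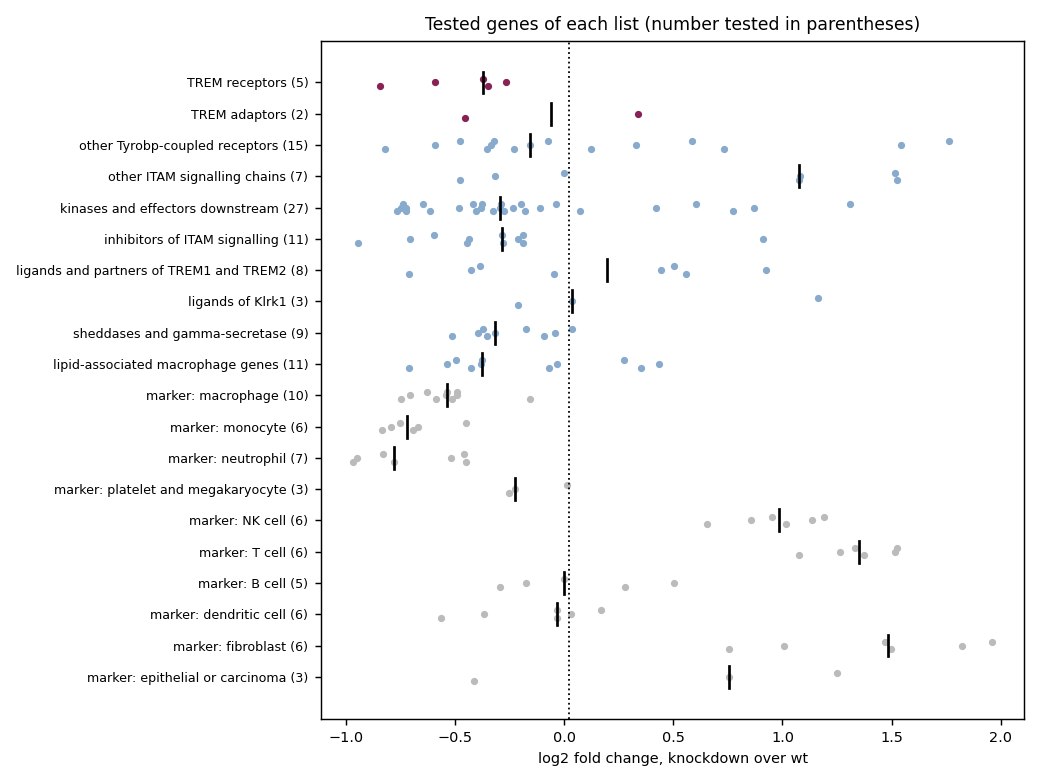
log2 fold change of the knockdown over the wt label (horizontal axis) for each tested gene of the pathway and marker lists, with the median of each list as a bar and that of all genes tested (0.02) as a dotted line. The TREM receptors lie below 0 together with the macrophage, monocyte and neutrophil markers, and the T cell, NK cell and fibroblast markers lie above it. In edgeR's fit no gene shown passed an adjusted p of 0.05, and DESeq2 called Treml2.

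Markers of several cell types moved with the labels, including types that the sorting gate should remove, and their part in the values above was not tested. All 10 macrophage markers, 6 of 6 monocyte markers and 7 of 7 tested neutrophil markers had lower estimates, with medians of -0.54, -0.72 and -0.78, beside -0.37 for the TREM receptors. Of all 13884 genes tested, 6656 had lower and 7228 had higher estimates, and edgeR called no marker. The neutrophil list, whose cells also express Trem1, Trem3 and Treml2, summed to 1695 to 1909 CPM in wt libraries and 732 to 1481 in libraries labelled knockdown. These sums did not overlap, as held for 25.9% of all genes tested, although Ly6g stood at only 0.57 to 2.11 CPM. Beside Hcst, all 6 NK cell markers and all 6 T cell markers had higher estimates, with medians of 0.99 and 1.35. The NK cell list summed to 36.3, 25.8 and 49.0 CPM in wt libraries and 45.5, 122 and 40.7 in the others, and the T cell list to 13.9, 24.3 and 74.4 and to 68.1, 160 and 59.3. Both lists overlapped between groups and were highest in knockdown replicate 2, as was Hcst. Beside Treml1, the platelet and megakaryocyte list summed to 339 to 433 CPM in wt libraries and 290 to 463 in the others, with overlap. Nearly all of it came from the chemokine genes Pf4 (146 to 216 CPM) and Ppbp (143 to 246 CPM), whereas Itga2b had 25 to 59 counts, Gp1bb at most 4, and the receptor genes Gp9 and Gp6 at most 3 in every library.

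The fibroblast list summed to 22.4 to 470.0 CPM in wt libraries and 341 to 681 in libraries labelled knockdown, with overlap. Most of it came from Col3a1, at 19.0 to 426 and 308 to 604 CPM, whereas Col1a1 had at most 5.52 CPM. The epithelial or carcinoma list summed to 35.2 to 137 and 129 to 191 CPM, also with overlap. Krt8 gave 9.90 to 117 and 105 to 171 CPM of this sum. Cdh1 had a lower estimate (log2 fold change -0.41), and Krt19 was at or below 3 counts in every library. The dendritic cell list, of cells that express Treml4, summed to 214 to 366 and 238 to 339 CPM, and the B cell list to 6.93 to 44.4 and 15.0 to 64.5, both overlapping.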

How the data were processed

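RNA of 6 libraries was analysed, 3 labelled wt and 3 labelled knockdown. The labels call them biological samples but do not tie them to separate animals, and fewer animals than libraries may stand behind them, so p-values measure only the spread between these libraries. The counts deposited by the authors are whole numbers and not normalized. They also deposited FPKM values, which equal these counts over 1 length per gene and over the library total in 19899 genes. The build is mm10 per the labels, and the aligner, the counting tool, the annotation and the use of strand are not given in the sources used here. The methods name no test for the sequencing data.

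Counts were fitted with edgeR 4.0.16 in R 4.3.3 (filterByExpr, TMM factors, glmQLFit and glmQLFTest) across all 13884 genes that passed the filter, with Benjamini-Hochberg adjustment and a threshold of 0.05. The standard error was obtained from each log2 fold change and its F statistic. Alternatives used DESeq2 1.42.0, and limma 3.58.1 on log2 FPKM plus 1 or plus 0.1. The scripts were tested on simulated counts. A count of 0 allows up to 3 counts, or 0.0716 to 0.0846 CPM, which covers counting error only.

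The 8 genes and all lists were chosen with earlier results of these data known. Named genes were, in each pathway list, the most abundant gene and the 2 with the largest absolute log2 fold change at a mean of at least 1 CPM. Also named were the 3 genes closest in pattern to Trem1, Trem2, Tyrobp and Hcst, the neighbors on the chromosome and the targeted gene. Coordinates and coding sequences are from GENCODE vM21 and promoter windows from RefSeq, both GRCm38. Replicate numbers were not treated as pairs, as the correlation of deviations was -0.24, 0.06 and -0.34. With 3 libraries a group, such values cannot exclude a pairing. The values of 1 gene of the macrophage list are not reported here on their own.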

Additional observations from a re-analysis of the deposited data

How the results depend on the processing

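The number of genes called by edgeR, 0, was also found with each other scaling, filter, limma fit and left-out library, whereas DESeq2 called 36. Except under scaling to the macrophage marker list, the median log2 fold change of the 7 genes stayed below 0 in these fits, between -0.57 without knockdown replicate 3 and -0.23 without knockdown replicate 2, and 6 of the 7 genes were lower in each. The number of genes without overlap between groups ranged from 2 to 6 when single libraries were left out, beside 29.6% to 49.7% of all genes, with 6 also without both wt replicate 1 and knockdown replicate 3, beside 57.7%.

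Scaling to the macrophage marker list was the alternative that changed directions. It moved the median of all genes from 0.02 to 0.63, left 1 of the 7 genes with a lower estimate and brought their median to 0.19. Trem1 (0.29), Trem2 (0.19), Trem3 (0.21), Treml4 (0.015) and Tyrobp (0.11) changed sign, and all lie below that shift. So did Sirpb1c (0.23), Fcer1g (0.094), Syk (0.37), Sla (0.38), Lgals3 (0.16), Raet1d (0.37), Adam17 (0.50), Aph1a (0.076), Psenen (0.22), Itgax (0.048), Ctnnbip1 (0.24), Rnf217 (0.36), Gm12854 (0.30), Cdk19 (0.18), Pilra (0.20), Slc25a16 (0.15), Srd5a3 (0.097), Trappc1 (0.12), Fxyd5 (0.11), A530064D06Rik (0.21), Nfya (0.44) and Nfkbid (0.53). By construction this scaling sets the summed list equal in all libraries.

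With limma on log2 FPKM plus 1, Adam17 (0.062) and Nfkbid (0.072) changed sign, as they did with plus 0.1 (0.064 and 0.074), which moved the median of all genes to 0.16. When libraries were left out, Nfkbid lay between -0.13 (without wt replicate 3) and 0.0070 (without wt replicate 1). The cause was not tested. In the fit blocked by replicate number, 0 genes were called, 1606 had an unadjusted p under 0.05, and the estimates of the 7 genes kept their directions. With 3 libraries a group, differences of the size seen in the TREM genes were not called by edgeR, and the depth limits only Treml1.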
